A study of Mus musculus with 8 samples.

Results

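Olr1, Mogat2, Chst13, Rhou, Gda, Mgam and Nrg1 are 7 mouse genes with little in common by function whose RNA was far higher in granulocyte progenitors without the cytokine receptor Flt3 on their surface than in those with it. They were chosen by that difference, from the processed signals of the arrays analysed here, with no threshold of size. The genes have 10 probes of 55681 on the array and stand among 20284 named genes. A probe was kept if both arrays of 1 or more groups read it well above background. All 10 probes passed, each of them through the Flt3- arrays, where they were bright in both genotypes, so passing is no support for their difference. Among the 14109 genes tested, the difference between Flt3- and Flt3+ wild-type progenitors ranked 1 for Olr1, 2 for Mogat2, 3 for Chst13, 5 for Rhou, 8 for Gda and 9 for Mgam, and 65 for Nrg1. The genes at ranks 4, 6 and 7, Prom1, Cebpe and Gm9733, are not among the 7. The ranks are of fitted values. Olr1, Mogat2, Rhou and Mgam were not well above background on either wild-type Flt3+ array, so background limits their places. Against the lowest signal well above background, their log2 differences were at least 5.63 (Olr1), 6.73 (Mogat2), 5.18 (Rhou) and 4.94 (Mgam). That of Gda, measured on all arrays, was 5.85. Over all genes 23.6% were called higher in Flt3- progenitors on the arrays labelled Irf8KO (45.8% in either direction) and 39.2% in wild type (61.9% in either direction), at an adjusted p under 0.05 in limma, and nothing is read from this for the 7 genes, which the contrast chose.

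The study measured total RNA of granulocyte progenitors (GPs) sorted from mouse bone marrow, on 8 one-colour arrays. The 4 groups were Flt3- GPs of mice labelled deficient for Irf8 (labelled Irf8KO), Flt3- GPs of wild-type mice, Flt3+ GPs of mice labelled Irf8KO and Flt3+ GPs of wild-type mice, with 2 arrays per group, 1 from each of 2 independent experiments. The cells were primary isolates without further treatment. No source used here gives the kind of Irf8 deletion, the strain, the age or the number of animals behind a sample, so the spread behind each p-value is that between these arrays and may be technical. In sorted bulk samples, fewer cells of a type and less RNA per cell cannot be told apart.

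Granulocyte progenitors in the bone marrow give rise to neutrophils and pass through a promyelocyte stage, in which primary granules are filled with myeloperoxidase and serine proteases. Flt3 is a receptor of early and lymphoid-primed progenitors that is lost along the granulocyte path. Irf8 is a transcription factor that favours monocytes and dendritic cells over granulocytes. The 7 genes fall into a surface receptor, Olr1, a secreted or membrane-bound ligand, Nrg1, a small GTPase, Rhou, and enzymes of lipid (Mogat2), glycan (Chst13, Mgam) and purine (Gda) metabolism.

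The arrays had 54.9 to 60.1% of spots well above background and no saturated spot, and arrays of a group correlated at r = 0.996 to 0.998 across genes. Flt3 RNA followed the sort, with a log2 difference of Flt3- minus Flt3+ GPs of -3.60 on the arrays labelled Irf8KO and -4.54 in wild type. Irf8 RNA, read by 1 probe, went against the label: arrays labelled Irf8KO stood 0.72 above wild type in Flt3- GPs (SE 0.051, limma adjusted p = 0.000399) and 0.84 above it in Flt3+ GPs (SE 0.051, limma adjusted p = 0.000226). No source used here says whether this probe falls within the deletion, so each direction between genotypes below rests on the labels. All arrays lay on 1 slide, each genotype in a row of its own and each population in columns of its own, so that a group cannot be told apart from its place on the slide.

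Promoter sequences, from 250 bases before to 50 bases after the start site, were at hand for 5 of the 7 genes (RefSeq, GRCm38.p6); Mogat2 and Nrg1 had none. They were searched on both strands, after the values had been seen, for letters bound by factors of the granulocyte lineage and by Irf8. The motifs were TTGCNNAA for C/EBP factors, GAGGAA for PU.1, TGTGGT for RUNX and the interferon-stimulated response element (ISRE) of IRF factors. Shown are Gda and Rhou, whose profiles over the arrays were closest to each other among the 7, and Mgam, which holds the same pair of motifs as Gda. Letters are lower case, with motif matches in capitals.
Gda (GRCm38.p6, chr19:21472612-21472911, minus strand): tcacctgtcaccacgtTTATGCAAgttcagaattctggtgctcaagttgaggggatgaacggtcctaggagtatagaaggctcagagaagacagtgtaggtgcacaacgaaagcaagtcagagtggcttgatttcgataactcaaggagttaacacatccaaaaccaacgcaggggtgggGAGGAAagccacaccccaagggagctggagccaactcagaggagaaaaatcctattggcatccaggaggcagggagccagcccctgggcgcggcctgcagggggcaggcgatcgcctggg
Rhou (GRCm38.p6, chr8:123653679-123653978, plus strand): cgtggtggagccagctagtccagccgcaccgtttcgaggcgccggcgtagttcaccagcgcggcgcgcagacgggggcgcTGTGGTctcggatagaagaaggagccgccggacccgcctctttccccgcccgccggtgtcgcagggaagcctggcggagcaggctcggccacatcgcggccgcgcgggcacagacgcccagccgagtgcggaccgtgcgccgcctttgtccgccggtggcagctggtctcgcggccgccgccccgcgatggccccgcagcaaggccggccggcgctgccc
Mgam (GRCm38.p6, chr6:40628581-40628880, plus strand): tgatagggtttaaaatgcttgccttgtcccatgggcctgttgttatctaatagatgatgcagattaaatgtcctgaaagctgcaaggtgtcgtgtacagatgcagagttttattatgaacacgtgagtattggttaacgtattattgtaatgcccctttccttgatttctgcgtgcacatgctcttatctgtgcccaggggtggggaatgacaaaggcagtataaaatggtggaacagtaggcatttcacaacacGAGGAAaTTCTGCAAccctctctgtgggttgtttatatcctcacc

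In Gda the C/EBP letters start at -234 and the PU.1 letters at -70 from the start site. In Mgam both lie just after the start site, PU.1 at +5 and C/EBP at +12. Rhou holds RUNX letters at -170, and neither of the other motifs that Gda and Mgam carry. Of the promoters not shown, that of Olr1 has 1 PU.1 match, at -76, and that of Chst13 has no match. Thus C/EBP letters occurred in 2 of 5 promoters, against 10.8% of 32851 promoters of the same length, PU.1 letters in 3 of 5 against 28.3%, RUNX letters in 1 of 5 against 16.8% and the ISRE in 0 of 5 against 3.44%. No matches overlapped. A match is a run of letters and no measured site, and a missing match covers this window only.

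The values of each gene follow, first as processed signal in fluorescence units on each array (before scaling between arrays), then as log2 of the signal over that array's 75th percentile, as mean ± SD (n = 2 arrays per group). The difference between populations chose the genes, so it is given as a description with no test.

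Olr1, on chromosome 6, encodes a lectin-like scavenger receptor that takes up oxidised LDL, known from endothelium and macrophages and, in humans, from a subset of neutrophils. Its signal was 493 and 527 in Flt3- GPs labelled Irf8KO and 558 and 566 in wild-type Flt3- GPs, against 12.2 and 4.90 in Flt3+ GPs labelled Irf8KO and 3.53 and 3.72 in wild-type Flt3+ GPs. All 4 Flt3- arrays were high, and none of the 4 Flt3+ arrays was well above background. The scaled level was 0.58 ± 0.050 in Flt3- GPs labelled Irf8KO and 0.40 ± 0.056 in wild-type Flt3- GPs, against -5.72 ± 0.95 in Flt3+ GPs labelled Irf8KO and -7.24 ± 0.25 in wild-type Flt3+ GPs. Against the lowest signal well above background, Flt3- GPs were at least 55.3-fold higher on the arrays labelled Irf8KO and at least 49.6-fold higher in wild type.

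Nrg1, on chromosome 8, encodes neuregulin 1, a ligand of the receptors ErbB3 and ErbB4. Its signal was 199 and 212 in Flt3- GPs labelled Irf8KO and 430.3 and 460.0 in wild-type Flt3- GPs, against 9.31 and 5.99 in Flt3+ GPs labelled Irf8KO and 45.4 and 61.3 in wild-type Flt3+ GPs. It was the only one of the 7 genes that was well above background on both wild-type Flt3+ arrays and on neither Flt3+ array labelled Irf8KO, and in both populations the arrays labelled Irf8KO lay below the wild-type arrays. The scaled level was -0.73 ± 0.050 in Flt3- GPs labelled Irf8KO and 0.06 ± 0.0016 in wild-type Flt3- GPs, against -5.77 ± 0.47 in Flt3+ GPs labelled Irf8KO and -3.37 ± 0.0043 in wild-type Flt3+ GPs. Flt3- GPs were at least 24.2-fold higher on the arrays labelled Irf8KO and 10.8-fold higher in wild type.

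Rhou, on chromosome 8, encodes an atypical small GTPase that exchanges its nucleotide quickly and acts on the cytoskeleton and cell adhesion. Its signal was 453 and 548 in Flt3- GPs labelled Irf8KO and 382 and 439.5 in wild-type Flt3- GPs, against 36.4 and 45.3 in Flt3+ GPs labelled Irf8KO and 6.33 and 8.33 in wild-type Flt3+ GPs. The 4 groups did not overlap, and only the wild-type Flt3+ arrays were not well above background. The scaled level was 0.55 ± 0.076 in Flt3- GPs labelled Irf8KO and -0.05 ± 0.072 in wild-type Flt3- GPs, against -3.33 ± 0.20 in Flt3+ GPs labelled Irf8KO and -6.24 ± 0.021 in wild-type Flt3+ GPs. Flt3- GPs were 14.7-fold higher on the arrays labelled Irf8KO and at least 36.2-fold higher in wild type.

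Gda, on chromosome 19, encodes guanine deaminase, which turns guanine into xanthine. On its brighter probe the signal was 11943 and 12876 in Flt3- GPs labelled Irf8KO and 8757 and 9326 in wild-type Flt3- GPs, against 1025 and 1102 in Flt3+ GPs labelled Irf8KO and 172 and 238 in wild-type Flt3+ GPs. This probe was well above background on all 8 arrays, and its 4 groups stood apart from each other. The scaled level was 5.19 ± 0.042 in Flt3- GPs labelled Irf8KO and 4.41 ± 0.0054 in wild-type Flt3- GPs, against 1.38 ± 0.056 in Flt3+ GPs labelled Irf8KO and -1.44 ± 0.028 in wild-type Flt3+ GPs. Flt3- GPs were 14.0-fold higher on the arrays labelled Irf8KO and 57.5-fold higher in wild type. The dimmer probe gave the same order of group means, with 726 and 817 in Flt3- GPs labelled Irf8KO and 686 and 759 in wild-type Flt3- GPs, against 71.3 and 58.0 in Flt3+ GPs labelled Irf8KO and 8.47 and 15.4 in wild-type Flt3+ GPs.

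Mgam, on chromosome 6, encodes maltase-glucoamylase, an enzyme of the intestinal brush border that frees glucose from starch fragments and is also present in granules of human neutrophils. On its brighter probe the signal was 588 and 704 in Flt3- GPs labelled Irf8KO and 327 and 371 in wild-type Flt3- GPs, against 27.4 and 26.2 in Flt3+ GPs labelled Irf8KO and 14.1 and 5.09 in wild-type Flt3+ GPs. The 2 wild-type Flt3+ arrays, neither well above background, were the most unequal pair of the gene. The scaled level was 0.92 ± 0.065 in Flt3- GPs labelled Irf8KO and -0.29 ± 0.060 in wild-type Flt3- GPs, against -3.93 ± 0.062 in Flt3+ GPs labelled Irf8KO and -6.01 ± 1.3 in wild-type Flt3+ GPs. Flt3- GPs were 28.8-fold higher on the arrays labelled Irf8KO and at least 30.7-fold higher in wild type. The dimmer probe was well above background on the 4 Flt3- arrays and on no Flt3+ array, with a signal at least 11.5-fold higher in Flt3- GPs on the arrays labelled Irf8KO and at least 5.29-fold higher in wild type.

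Mogat2, on chromosome 7, encodes an acyltransferase that makes diacylglycerol from monoacylglycerol and is best known from fat absorption in the intestine. Its signal was 779 and 912 in Flt3- GPs labelled Irf8KO and 1191 and 1218 in wild-type Flt3- GPs, against 17.3 and 12.3 in Flt3+ GPs labelled Irf8KO and 8.57 and 13.5 in wild-type Flt3+ GPs. Only 1 of the 4 Flt3+ arrays, labelled Irf8KO, was well above background. The scaled level was 1.31 ± 0.043 in Flt3- GPs labelled Irf8KO and 1.50 ± 0.046 in wild-type Flt3- GPs, against -4.81 ± 0.36 in Flt3+ GPs labelled Irf8KO and -5.67 ± 0.16 in wild-type Flt3+ GPs. Flt3- GPs were 69.4-fold higher on the arrays labelled Irf8KO and at least 106-fold higher in wild type.

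Chst13, on chromosome 6, encodes a sulfotransferase that adds sulfate to the galactosamine units of chondroitin. On its brighter probe the signal was 1059.6 and 1266 in Flt3- GPs labelled Irf8KO and 1413 and 1617 in wild-type Flt3- GPs, against 62.7 and 73.5 in Flt3+ GPs labelled Irf8KO and 13.5 and 29.5 in wild-type Flt3+ GPs. After scaling the genotypes overlapped in Flt3- GPs, at 1.77 ± 0.063 on the arrays labelled Irf8KO and 1.83 ± 0.068 in wild type, and stood apart in Flt3+ GPs, at -2.59 ± 0.14 on the arrays labelled Irf8KO and -4.77 ± 0.49 in wild type. Flt3- GPs were 20.5-fold higher on the arrays labelled Irf8KO and 97.2-fold higher in wild type, where 1 of 2 Flt3+ arrays was well above background. The 2 probes disagreed in size: on the dimmer one, well above background on all 8 arrays, Flt3- GPs were 2.36-fold higher on the arrays labelled Irf8KO and 2.83-fold higher in wild type.

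**Figure D1:**
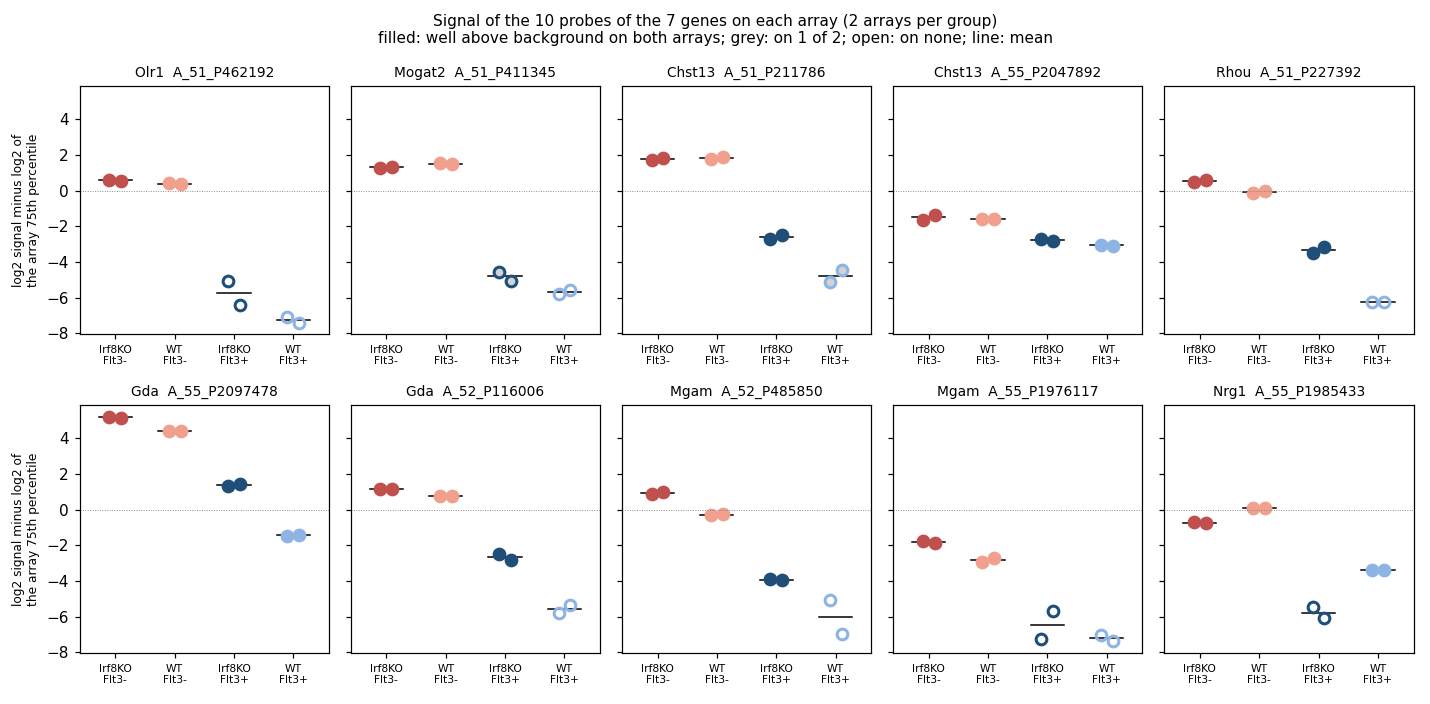
Each panel is 1 probe, with the 4 groups on the x axis and, on the y axis, log2 signal minus log2 of the 75th percentile of the array; points are arrays, lines are group means, and the fill gives on how many of the 2 arrays the probe was well above background. All 10 probes are higher on every Flt3- array than on every Flt3+ array, and the Flt3+ means of Nrg1 alone are lower on the arrays labelled Irf8KO (-5.77) than in wild type (-3.37).

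The population differences were then set side by side in the 2 genotypes, where background in Flt3+ GPs limits most of them. Gda, the gene measured on all 8 arrays on its brighter probe, had a log2 difference of 3.81 on the arrays labelled Irf8KO against 5.85 in wild type, a gap of -2.04 (SE 0.067). Rhou had 3.88 on the arrays labelled Irf8KO against at least 5.18 in wild type. Mogat2 had 6.12 on the arrays labelled Irf8KO, where 1 of 2 Flt3+ arrays was well above background, against at least 6.73 in wild type. Chst13 had 4.35 against 6.60 on its brighter probe and 1.24 against 1.50 on its dimmer one, in each case on the arrays labelled Irf8KO against wild type. These 4 genes thus had the smaller difference on the arrays labelled Irf8KO, also with normexp background correction, another way of correcting signal for background. That correction was run with an offset of 50, a constant added to every signal. The constant draws in differences against dim groups. An order that turns or a call that ends with normexp correction cannot be told apart from its effect.

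The other 3 genes gave no order that held. Olr1 had bounds alone, at least 5.79 on the arrays labelled Irf8KO and at least 5.63 in wild type. Mgam had 4.85 on the arrays labelled Irf8KO against at least 4.94 in wild type, but its fitted values turned to 3.38 against 3.02 with normexp correction. Nrg1 had at least 4.60 on the arrays labelled Irf8KO against 3.44 in wild type. Here too the order turned with normexp correction, to 2.04 against 2.39. Whether either turn goes beyond the effect of the offset was not tested. All of these differences are built from the contrasts that chose the genes, and none of the gaps was tested.

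**Figure D2:**
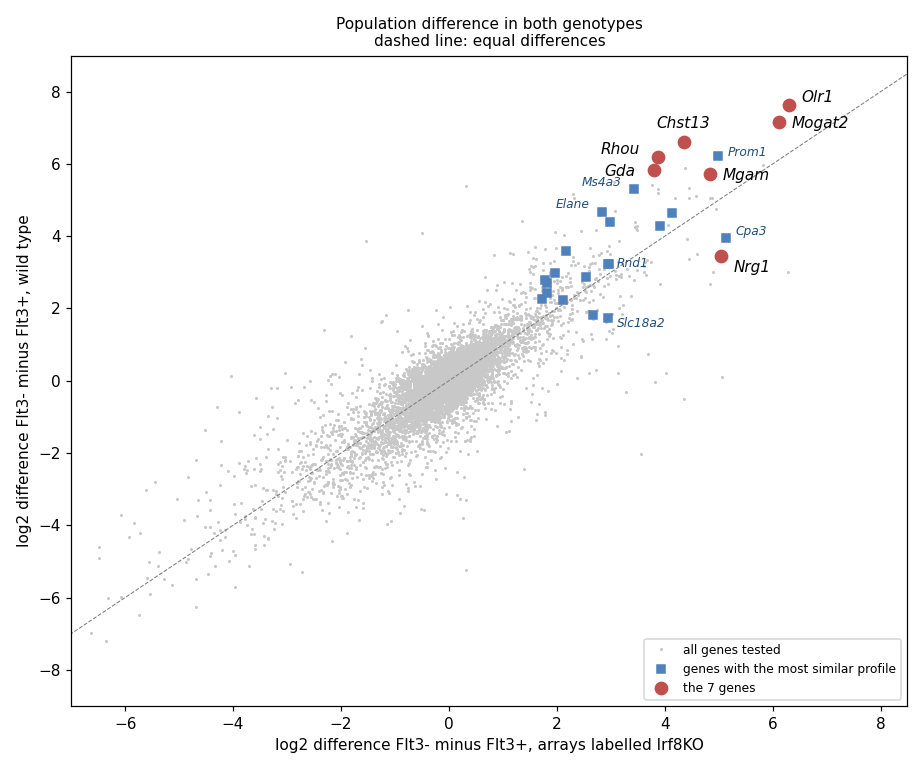
Each point is 1 gene, with the log2 difference of Flt3- minus Flt3+ GPs on the arrays labelled Irf8KO on the x axis and in wild type on the y axis; red circles are the 7 genes and blue squares the genes most like them. The values are as fitted, so those against dim Flt3+ arrays are limited by background; Gda (3.81, 5.85) lies above the dashed line of equal differences and Nrg1 (5.04, 3.44), whose order turned with normexp correction, below it.

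The comparison of genotypes asked whether the RNA of these genes differs with the Irf8 label within a population. It was not used to pick the genes, but it shares its arrays of both genotypes with the choice, which named no genotype. Genes picked as low in wild-type Flt3+ GPs lean towards a higher value on the other Flt3+ arrays. In Flt3- GPs, Gda and Rhou were higher and Nrg1 was lower on the arrays labelled Irf8KO. Gda was higher by 0.78 (1.71-fold, SE 0.047, limma adjusted p = 0.000282) and Rhou by 0.60 (1.52-fold, SE 0.10, limma adjusted p = 0.00584), with both arrays labelled Irf8KO above both wild-type arrays. Nrg1 fell by 0.79 (1.73-fold, SE 0.20, limma adjusted p = 0.0228), again with no overlap, although the call was lost when any 1 of the 4 Flt3- arrays was left out (adjusted p = 0.0755 to 0.0917). The call of Gda did not extend to its dimmer probe, where the difference was 0.42 (SE 0.17, limma adjusted p = 0.117).

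The other 4 genes were not called in Flt3- GPs. Mgam had a log2 difference of 1.21 with a 95% confidence interval of -0.18 to 2.59 (limma adjusted p = 0.136), and both arrays labelled Irf8KO lay above both wild-type arrays. In a fit of the 4 Flt3- arrays alone, without the unequal wild-type Flt3+ pair, the same difference had an adjusted p of 0.00472, and without either 1 array of that pair it had one of 0.000708. The differences were 0.18 for Olr1 (interval -0.84 to 1.20), -0.19 for Mogat2 (-0.62 to 0.23) and -0.06 for Chst13 (-0.61 to 0.48). In all, 2 of 7 genes were higher and 1 lower, against 16.5% of the 14109 genes tested called higher and 27.2% lower (43.6% in either direction), and the median difference of the 7 genes was 0.18, against -0.03 over all genes.

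In Flt3+ GPs the differences of Gda, Rhou and Chst13 were larger in size than in Flt3- GPs on their brighter probes, a gap that was not tested. Gda was higher by 2.82 on the arrays labelled Irf8KO (7.05-fold, SE 0.047, limma adjusted p = 2.78e-06), and its dimmer probe by at least 5.86-fold (adjusted p = 0.000506). Rhou was at least 3.74-fold higher (limma adjusted p = 3.38e-05), its wild-type Flt3+ arrays being no more than background. Chst13 was higher by 2.19 (4.55-fold, SE 0.22, limma adjusted p = 0.00150) on its brighter probe, but by 0.33 on the dimmer one (SE 0.093, adjusted p = 0.0667), which was measured on all 4 arrays.

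Nrg1 moved the other way. It was at least 3.87-fold lower in Flt3+ GPs labelled Irf8KO than in wild-type Flt3+ GPs (limma adjusted p = 0.000731), with neither of the arrays labelled Irf8KO well above background. With normexp correction the difference of Nrg1 was -0.28 in Flt3+ GPs (adjusted p = 0.0245) and -0.63 in Flt3- GPs (adjusted p = 0.000319), so which population had the larger one depends on the correction. Mgam was at least 2.46-fold higher (limma adjusted p = 0.0405) and Mogat2 at least 1.34-fold higher (limma adjusted p = 0.0163). The call of Mgam was lost with the replicate block (adjusted p = 0.0505) and when any 1 of the other 6 arrays was left out (adjusted p = 0.0673 to 0.140), and its difference of 2.08 was 3.03 without the first and 1.14 without the second wild-type Flt3+ array. The call of Mogat2 was lost without the first wild-type Flt3+ array (adjusted p = 0.0716). Olr1 was not well above background on any of the 4 arrays and has no fold here, whatever its p. Thus 5 of 7 genes were higher and 1 lower, against 16.5% of all genes called higher and 12.5% lower (29.0% in either direction), and the median difference was 2.08 as fitted and 1.30 with dim genes at their bounds, against 0.04 over all genes. The choice leans towards genes low in wild-type Flt3+ GPs, so nothing is read from this count or median for the 7 genes. The p-value of each rise in Flt3+ GPs carries the same lean and is no independent support for that gene.

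**Figure D3:**
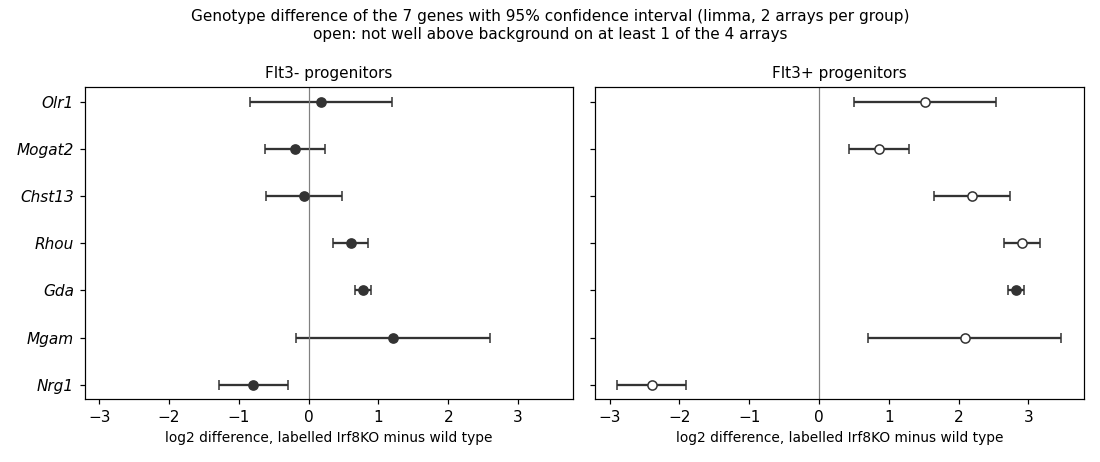
For each gene (y axis) the x axis gives the log2 difference of arrays labelled Irf8KO minus wild type with its 95% confidence interval, in Flt3- GPs on the left and Flt3+ GPs on the right; open points were not well above background on at least 1 of the 4 arrays, so their folds are limited by background. Nrg1 lies left of 0 in both panels (-0.79 and -2.40), and Gda right of 0 in both (0.78 and 2.82).

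How alike the profiles were was taken as Pearson's r of the log2 values over the 8 arrays, which fall into 4 groups and share that structure, so it is a description. Among the 15 pairs of the 6 genes other than Nrg1, r ran from 0.946 to 0.999, with Rhou and Gda at 0.999. The 6 pairs with Nrg1 ran from 0.692 to 0.886. Of 1156 genes whose group means spanned at least 2 log2 units, those most like Gda were Elane, Prtn3 and Aoah, and those most like Rhou were Elane, Prtn3 and Cfd, with r of 0.998 or more. Elane and Prtn3 encode neutrophil elastase and proteinase 3 of primary granules. Elane was higher on the arrays labelled Irf8KO by 0.49 in Flt3- GPs (limma adjusted p = 0.00142) and by 2.34 in Flt3+ GPs (limma adjusted p = 7.19e-06), beside 0.78 and 2.82 for Gda. Its Flt3- minus Flt3+ difference was 2.83 on the arrays labelled Irf8KO and 4.68 in wild type, beside 3.81 and 5.85 for Gda.

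Among the profiles closest to that of Nrg1 were those of Slc18a2 and Cpa3 (r = 0.992 for both). Cpa3 encodes the carboxypeptidase of mast cell granules, and Slc18a2 the vesicular transporter that loads histamine and other monoamines. Both fell on the arrays labelled Irf8KO. The difference of Cpa3 was -1.49 in Flt3- GPs (limma adjusted p = 0.000112) and -2.68 in Flt3+ GPs (adjusted p = 9.39e-06), and that of Slc18a2 was -0.54 in Flt3- GPs (limma adjusted p = 0.00125) and -1.74 in Flt3+ GPs (adjusted p = 2.54e-05). Cpa3 is also one of the mast cell markers counted below.

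The other 4 genes had their own nearest profiles. Olr1 was most like Clec4b2, a C-type lectin receptor, Prom1, the stem cell surface protein prominin, and Abca13, a lipid transporter of the ABC family, with r of 0.996 or 0.997. Mogat2 was most like Rnd1, a small GTPase, Slc16a8 and Rflnb (r = 0.997 to 0.999). Chst13 was most like Dsp, which encodes desmoplakin, Ms4a3 and Cldn15 (r = 0.998), of which Ms4a3 is a marker of granulocyte and monocyte progenitors. Mgam was most like Tmem38b, Rhcg and Cd14 (r = 0.990 to 0.996). Of these 12 genes, Cd14, the lipopolysaccharide co-receptor, was higher (0.69, limma adjusted p = 0.00248) and Ms4a3 lower (-0.19, adjusted p = 0.0103) between genotypes in Flt3- GPs, where none of the 4 genes they resemble was called.

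The genes next to the 7 in the RefSeq order were looked at after the values were seen. Of 28 neighbours, 2 on either side of each gene, 18 were tested, of which 6 were higher and 7 lower in wild-type Flt3- GPs than in wild-type Flt3+ GPs. Over all genes tested, 39.2% were called higher and 22.6% lower in that comparison. The largest fitted rises among these neighbours were those of Dgat2 and Clec5a. Dgat2 lies next to Mogat2 and encodes the acyltransferase of the last step of triglyceride synthesis. Clec5a is a myeloid lectin receptor 2 genes from Mgam. Dgat2 was higher in Flt3- GPs by 2.79 on the arrays labelled Irf8KO and by 3.09 in wild type, and on the arrays labelled Irf8KO by 0.73 in Flt3- GPs (limma adjusted p = 0.000554) and 1.03 in Flt3+ GPs (adjusted p = 0.000177). In Flt3- GPs the genotype difference of Mogat2 was -0.19 and not called. Clec5a was higher in Flt3- GPs by 1.74 on the arrays labelled Irf8KO and at least 2.16-fold in wild type, and on the arrays labelled Irf8KO by 2.06 in Flt3- GPs (limma adjusted p = 0.000807). Serpinh1, on the other side of Mogat2, went against it and was at least 6.18-fold lower in wild-type Flt3- GPs, where it was not well above background.

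**Figure D4:**
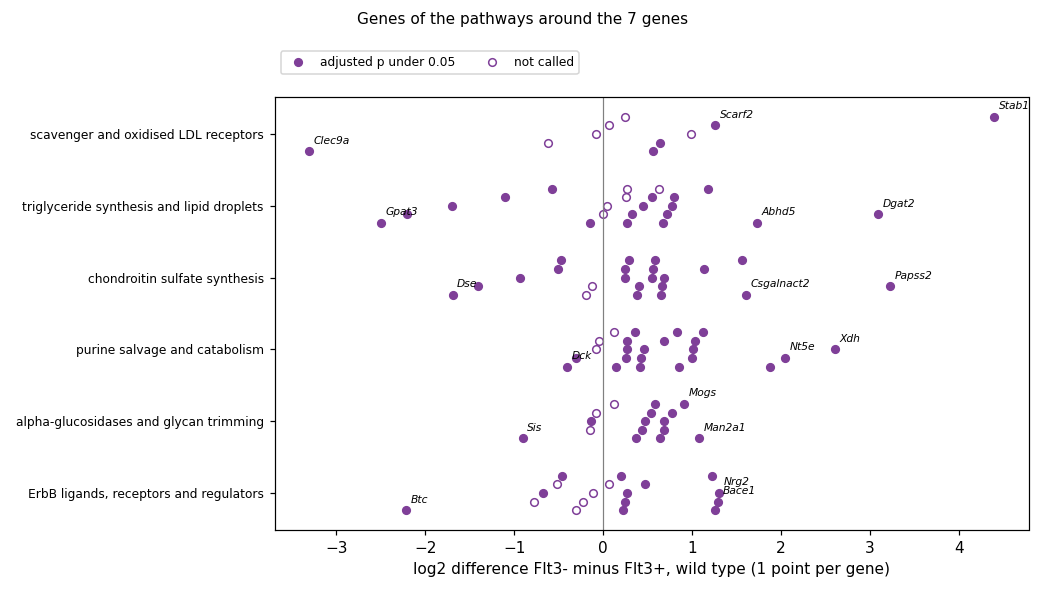
Each point is 1 gene of 6 pathway lists (rows), placed on the x axis by its log2 difference of Flt3- minus Flt3+ wild-type GPs; filled points had an adjusted p under 0.05. The purine list lies mostly right of 0 (18 higher and 2 lower, but 12 and 4 with quantile normalization), and the triglyceride list on both sides (11 higher, 6 lower).

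The other genes of each pathway, none of them among the 7, were counted in wild-type Flt3- against Flt3+ GPs, where 39.2% of all genes were called higher and 22.6% lower and the median of all genes was 0.12. With quantile normalization that median was 0.01, so list medians are given under both scalings. Of 23 genes of purine salvage and breakdown around Gda, 18 were higher and 2 lower, with a median of 0.42. With quantile normalization 12 were higher and 4 lower, with a median of 0.24. Xdh, the xanthine dehydrogenase that acts on the product of Gda, was higher in Flt3- GPs by 2.61 (SE 0.10). On the arrays labelled Irf8KO Xdh was higher by 0.89 in Flt3- GPs (limma adjusted p = 0.00157) and 1.63 in Flt3+ GPs (adjusted p = 0.000251), in the same direction as Gda. Pnp2 and Pnp, purine nucleoside phosphorylases that free guanine from guanosine, were higher in wild-type Flt3- GPs by 1.88 (SE 0.086) and 1.01 (SE 0.046). Across genotypes in Flt3- GPs, however, 5 of the 23 rose and 13 fell with the Irf8KO label, with a median of -0.19, against 5 and 10 with a median of -0.09 under quantile normalization. Over all genes tested, 16.5% were called higher and 27.2% lower in this comparison, which holds for the lists below as well.

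Of 22 genes of triglyceride synthesis and lipid droplets around Mogat2, 11 were higher and 6 lower in wild-type Flt3- GPs (median 0.30, with quantile normalization 0.33). Beside Dgat2, Dgat1, which carries out the same step, was higher by 0.80 (SE 0.052) and on the arrays labelled Irf8KO by 0.58 in Flt3- GPs (limma adjusted p = 0.000745). Mogat1, the closest relative of Mogat2, did not pass the filter. Agpat3, an acyltransferase of lysophosphatidic acid, fell by 2.20 (SE 0.050), and Gpat3, which starts glycerolipid synthesis, had a difference of -2.50 (SE 0.39) and was above background on 1 of 2 wild-type Flt3- arrays. Lpin1, a phosphatidate phosphatase, was higher on the arrays labelled Irf8KO by 0.71 in Flt3- GPs (limma adjusted p = 0.000663). Across genotypes in Flt3- GPs 5 of the 22 were higher and 3 lower.

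Of 22 genes of chondroitin sulfate synthesis around Chst13, 15 were higher and 5 lower in wild-type Flt3- GPs (median 0.39, with quantile normalization 0.28). Papss2, which makes the sulfate donor, was higher by 3.23 (SE 0.063), Csgalnact2, which starts the chondroitin chain, by 1.61 (SE 0.042), and Srgn, the core protein of the granule proteoglycan serglycin, by 1.57 (SE 0.047). The sulfotransferases Chst12 and Chst11 were higher by 1.14 (SE 0.046) and 0.66 (SE 0.074), while Chst3 fell by 0.93 (SE 0.15). Dse, an epimerase that turns chondroitin into dermatan, was not well above background in Flt3- GPs and at least 1.74-fold lower there (limma adjusted p = 0.0437), a call that quantile normalization ended (adjusted p = 0.0565) and for which normexp correction left a difference of -0.0043 (adjusted p = 0.969). Across genotypes in Flt3- GPs 3 genes rose and 4 fell, in all 7, but 4 without the first array labelled Irf8KO, 4 without the first wild-type array and 3 without the second one, and the largest called were Chst3 (-1.22) and Csgalnact1 (-0.91), the call of Chst3 ending with normexp correction (-0.18, adjusted p = 0.0890).

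Of 16 genes of alpha-glucosidases and glycan trimming around Mgam, 11 were higher and 2 lower in wild-type Flt3- GPs (median 0.50, with quantile normalization 0.27). Man2a1, a mannosidase of the Golgi, was higher by 1.08 (SE 0.050), Mogs, the glucosidase that starts glycan trimming, by 0.91 (SE 0.049), and Gaa, the lysosomal alpha-glucosidase, by 0.58 (SE 0.050). Sis, the intestinal sucrase-isomaltase and closest relative of Mgam, was not well above background in Flt3- GPs and at least 1.67-fold lower there (limma adjusted p = 0.00736), a call that normexp correction ended, with a difference of 0.02 (adjusted p = 0.875). Across genotypes in Flt3- GPs 2 were higher and 1 lower, led by Ganc (0.47) and Mogs (-0.46), and quantile normalization called 5 higher and 1 lower.

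Of 18 ErbB ligands, receptors and regulators around Nrg1, 9 were higher and 3 lower in wild-type Flt3- GPs, with a median of 0.13. With quantile normalization 6 were higher and 3 lower, and the median turned to -0.07. The receptors of Nrg1, Erbb3 and Erbb4, did not pass the filter, and Erbb2, their partner, had a difference of 0.25 (SE 0.084, limma adjusted p = 0.0440), a call that the replicate block ended (adjusted p = 0.0651), as did the deposited series table (adjusted p = 0.0970). Nrg2, a related ligand, was higher by 1.30 (SE 0.054) and Bace1, a protease that cleaves neuregulin, by 1.29 (SE 0.047), and Btc, betacellulin, was not well above background in Flt3- GPs. Nrg2 went against Nrg1 between genotypes: it was higher on the arrays labelled Irf8KO by 1.09 in Flt3- GPs (limma adjusted p = 0.000162) and 1.70 in Flt3+ GPs (adjusted p = 2.23e-05). Of the 18, 3 were higher and 5 lower across genotypes in Flt3- GPs (4 and 3 with quantile normalization), the largest called being Lrig1 (1.56) and Lrig3 (-1.42), regulators of ErbB receptors. Without the second Flt3- array labelled Irf8KO, the count was 4 in place of 8.

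Of 10 scavenger receptors around Olr1 that passed the filter, 4 were higher and 1 lower in wild-type Flt3- GPs (median 0.40, with quantile normalization 0.35), and 10 others on the array did not pass it, among them Msr1, the macrophage scavenger receptor. Stab1, stabilin 1, was at least 12.8-fold higher in wild-type Flt3- GPs and well above background on the 4 Flt3- arrays and no others. Scarf2 was higher by 1.26 (SE 0.097), and Clec9a, a lectin of dendritic cells that was well above background on the 2 wild-type Flt3+ arrays and no others, was at least 3.69-fold lower. Across genotypes in Flt3- GPs 0 were higher and 2 lower, Scarb2 (-0.36) and Scarb1 (-0.17), a count that was 1 with quantile normalization, which ended the call of Scarb1 (adjusted p = 0.0877), 1 without either wild-type array and 0 without the first array labelled Irf8KO. Setting dim genes at their bounds moved none of these list medians between wild-type populations.

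Lists of cell type markers were counted too, and not every list moved with each contrast. Their counts stand against the shares of all genes tested. Between wild-type populations 39.2% were called higher and 22.6% lower in Flt3- GPs, and on the arrays labelled Irf8KO 23.6% and 22.1%. With the Irf8KO label 16.5% rose and 27.2% fell in Flt3- GPs, and 16.5% rose and 12.5% fell in Flt3+ GPs. The list of 14 primary granule and promyelocyte genes was higher in Flt3- GPs for 14 of 14 genes in both genotypes. With the Irf8KO label 6 of the 14 rose and 2 fell in Flt3- GPs, and 11 rose and 1 fell in Flt3+ GPs. Its summed signal, in units of the 75th percentile of the array, was 2954 to 3192 in Flt3- GPs labelled Irf8KO and 2566 to 2694 in wild-type Flt3- GPs, against 1326 to 1332 in Flt3+ GPs labelled Irf8KO and 769 to 852 in wild-type Flt3+ GPs. That is the order of groups of Gda, Rhou and Mgam, and its part in their differences was not tested. Mpo and Ctsg were the brightest of the list, and a sum weighs bright genes most. Between genotypes in Flt3- GPs neither was called (0.28 for Mpo, limma adjusted p = 0.102, and 0.16 for Ctsg, limma adjusted p = 0.0811). The 2 genes that fell there were Cebpe (-0.47) and Ms4a3 (-0.19), so the order of the sum is not that of every gene of the list.

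The list of 16 eosinophil, basophil and mast cell genes was higher in Flt3- GPs for 15 of 16 on the arrays labelled Irf8KO and 14 of 16 in wild type, and with the Irf8KO label 0 of the 16 rose and 13 fell in Flt3- GPs, and 1 rose and 10 fell in Flt3+ GPs. Its sum was 75.3 to 75.7 in Flt3- GPs labelled Irf8KO and 154.8 to 155.3 in wild-type Flt3- GPs, against 8.23 to 8.57 in Flt3+ GPs labelled Irf8KO and 17.2 to 17.7 in wild-type Flt3+ GPs. That is the order of groups of Nrg1, and the part of the list in its differences was not tested. Hdc and Cpa3 were its brightest genes, and the mast cell proteases Mcpt4 and Cma1 did not pass the filter.

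The other lists had other orders of groups, and some moved with the genotype label as some of the 7 genes did. Of 14 secondary granule and mature neutrophil genes, 5 were higher and 4 lower in wild-type Flt3- GPs, but 12 rose and 1 fell with the Irf8KO label in Flt3- GPs, with sums of 78.0 to 81.8 on the arrays labelled Irf8KO and 57.2 to 58.0 in wild type. In Flt3+ GPs, too, 12 of these rose and 1 fell (median 1.78), with sums of 79.2 to 79.4 on the arrays labelled Irf8KO and 52.3 to 59.4 in wild type. Gda and Rhou rose in both populations as well, and the part of this list in their differences was not tested. Of 11 monocyte and macrophage genes, 4 were higher and 4 lower in wild-type Flt3- GPs (2 and 5 with quantile normalization). With the Irf8KO label 4 rose and 6 fell in Flt3- GPs, and 5 rose and 5 fell in Flt3+ GPs. Fcgr1 and Mertk were among those of the list that did not pass the filter. The sums rose with the label, however. They were 145.4 to 146.1 against 74.5 to 74.7 in wild type in Flt3- GPs, and 138.0 to 142.1 against 77.7 to 80.8 in Flt3+ GPs. A sum weighs bright genes most, and the brightest here, F13a1 and Csf1r, were called higher in both populations. Gda and Rhou also rose in both, and the part of the monocyte list in their differences was not tested. Of 14 erythroid and megakaryocyte genes, 0 rose with the Irf8KO label in either population, while 11 fell in Flt3- GPs and 13 in Flt3+ GPs. Their sums were 14.2 to 14.7 on the arrays labelled Irf8KO and 28.6 to 28.8 in wild type in Flt3- GPs, and 24.4 to 24.8 on the arrays labelled Irf8KO and 64.0 to 67.1 in wild type in Flt3+ GPs. Nrg1 fell in both populations as well, and the part of this list in its differences was not tested. Of 12 lymphoid and dendritic cell genes, 0 were higher and 7 lower in wild-type Flt3- GPs. With the Irf8KO label 3 rose and 3 fell in Flt3- GPs, and 4 rose and 2 fell in Flt3+ GPs. Pax5, Ncr1 and Xcr1 did not pass the filter. The sums of this list were 254.8 to 272.8 with the label against 215.1 to 228.6 in wild type in Flt3- GPs. In Flt3+ GPs they were 483.8 to 510.5 against 348.2 to 371.3. Of 10 genes of stroma, endothelium and epithelium, 2 were higher and 4 lower in wild-type Flt3- GPs, 1 rose and 4 fell with the Irf8KO label in Flt3- GPs and 0 rose and 5 fell in Flt3+ GPs, with sums between 52.9 and 71.2 on all arrays, and Col1a1, Col3a1, Cdh5 and Epcam did not pass the filter.

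**Figure D5:**
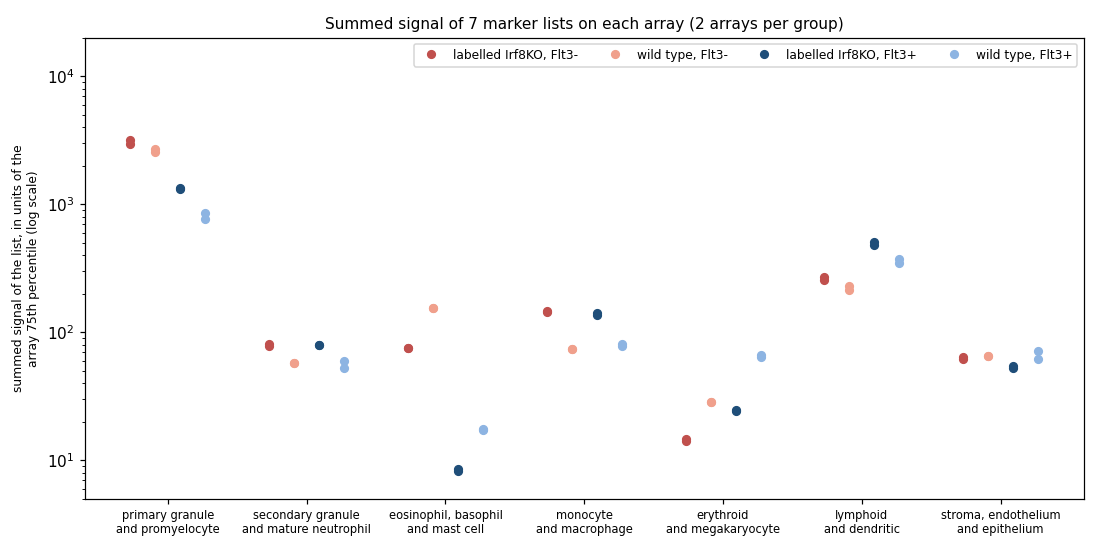
For 7 marker lists (x axis) the points give the summed signal of the list on each array, in units of the 75th percentile of the array (y axis, log scale), with the 4 groups in colour. The primary granule sum is highest in Flt3- GPs labelled Irf8KO (2954 to 3192) and lowest in wild-type Flt3+ GPs (769 to 852), while the eosinophil, basophil and mast cell sum is highest in wild-type Flt3- GPs (154.8 to 155.3).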

How the data were processed

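Total RNA of 8 sorted samples was labelled with a low-input Cy3 kit, per the labels' protocols. The deposited spot intensities are linear, background-subtracted and detrended values of Agilent Feature Extraction 10.7.3.1, per the file headers, with no scaling between arrays. The flags for spots well above background, saturated or outlying (another kind of value, 0 or 1 per spot) were used as deposited by the authors. The median intensity of spots and of their background served an alternative that had been planned on the mean spot signal, which this work did not use. By its values, the table deposited for the whole series is the same intensity multiplied by 1 factor per array (99.8% or more of probes within 1% of it), linear and not centred, with column medians of 26.9 to 29.9; no source says how the authors made it.

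Control spots and 93 to 178 outlier spots per array were left out, spots of a probe were averaged, and each log2 intensity was set against that array's 75th percentile. Probes were named through RefSeq accessions (GRCm38.p6): 26762 probes got 20284 symbols and 28919 got none. A gene stood by its brightest probe. The 8 arrays were fitted in limma 3.58.1 (R 4.3.3) with 1 mean per group (4 residual degrees of freedom), with Benjamini-Hochberg adjustment over 14109 genes, and a call is an adjusted p under 0.05. The dimmer probes of Chst13, Gda and Mgam come from a fit of 32672 probes, added after the data were seen. A fold against a group without any array well above background is a bound: the mean of the bright group is set against the mean over dim arrays of whichever is higher, the probe's own signal or the lowest one above background on that array. The number of arrays limits the precision. The script was tested on simulated data.

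The 7 genes, the lists and the tests were chosen with earlier results of these data known. The text names the 7 genes, the 3 genes most like each, of each pathway list the 3 largest calls between wild-type populations and the 2 largest between genotypes in Flt3- GPs, chosen family members, and of each marker list the 2 brightest genes and those that did not pass the filter. Some genes and 1 list that this rule takes in are not reported here. Neighbouring genes and promoter motifs were chosen after the data were seen. Experiment numbers are in the sample titles, but the deviations of same-numbered arrays correlated at only -0.03 to 0.12, so no block was used in the main fit. Alternatives were the background correction (normexp with an offset of 50), quantile normalization, the deposited table, the filter and the probe for a gene. Others were the arrays in the fit, the block and leaving out each array.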

Additional observations from a re-analysis of the deposited data

Results flagged for a closer look

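In Mogat2 both arrays labelled Irf8KO lay below the wild-type arrays in Flt3- GPs and above them in Flt3+ GPs. The difference in Flt3- GPs was not called (-0.19, interval -0.62 to 0.23), and in Flt3+ GPs 3 of the 4 arrays were not well above background, so that the difference there is a bound of at least 0.42. The gap of -1.05 between the fitted log2 differences is therefore limited by background, and it was not tested, because it is built from the contrasts that chose the gene.

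For 17 named genes of the pathway lists, the limma fit called an interaction. For these, the difference of arrays labelled Irf8KO minus wild type was not the same in Flt3- and Flt3+ GPs. The values are the difference in Flt3- GPs minus that in Flt3+ GPs, on the log2 scale. Among the scavenger receptors they were 3.63 for Clec9a, which was well above background on wild-type Flt3+ arrays only, -0.83 for Scarf2, -0.38 for Scarb2 and -0.29 for Scarb1. In triglyceride synthesis they were 1.19 for Lpin1, which was higher on the arrays labelled Irf8KO in Flt3- GPs (0.71) and lower in Flt3+ GPs (-0.48), and -0.30 for Dgat2. In chondroitin synthesis they were 0.92 for Csgalnact1, 0.38 for Chst11 and -0.62 for Papss2. Of the purine genes Nt5e, which was not well above background in wild-type Flt3+ GPs, had -2.03, and Xdh had -0.74. Of the glycan genes Mogs had -0.58 and Ganc 0.37. Among ErbB genes the values were -0.78 for Lrig3, -0.61 for Nrg2 and -0.34 for Bace1. The value of 1.32 for Btc is limited by background, since Btc was well above it on the 2 wild-type Flt3+ arrays alone, and with normexp correction its difference in Flt3+ GPs went to 0.07 (adjusted p = 0.708) against -1.20. All 17 interactions had an adjusted p between 0.00135 and 0.0422. Named genes without such a call are not listed, and some genes were named for their large called differences. The share of all genes with an interaction is not given here, so nothing is read from the number 17.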

How the results depend on the processing

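The calls of Gda and Rhou between genotypes held in both populations under every alternative that gave a value on the same probe. Rhou gave none when all 8 arrays had to be well above background. In Flt3+ GPs these calls share the wild-type arrays with the choice of the genes, which no alternative changes. Chst13 in Flt3- GPs, not called, turned to 0.0686 on its dimmer probe, which also stood for it under that filter, and to 0.00282 as the mean of both probes. The counts of genes called over all genes stayed within 1.5 times except between genotypes. In Flt3- GPs that count was 6158 and ran from 4054 to 6442 when single arrays were left out, lowest without the second wild-type Flt3- array. In Flt3+ GPs it was 4088, against 2679 with no filter, 2665 with only the 4 arrays compared, and 1996 to 3678 with single arrays left out, lowest without the second and 2183 without the first Flt3+ array labelled Irf8KO. Between populations the ranges were 4936 to 6815 on the arrays labelled Irf8KO and 7190 to 8552 in wild type. Quantile normalization gave 4123 genes higher and 4198 lower in wild-type Flt3- GPs, against 5535 and 3194. The replicate block gave 6202 genes in Flt3- GPs, 4008 in Flt3+ GPs, 6552 between populations on the arrays labelled Irf8KO and 8783 in wild type. It ended the call of Mgam in Flt3+ GPs (adjusted p = 0.0505) and of no other of the 7 genes. Normexp correction, which adds a constant of 50 to every signal, gave smaller differences against dim groups. Examples are Olr1 between wild-type populations (3.51, against 7.64 as fitted) and Rhou in Flt3+ GPs (0.93, against 2.91). It also called Mgam in Flt3- GPs (limma adjusted p = 0.000549). Nrg1 in Flt3- GPs also lost its call without the filter (adjusted p = 0.0521). The cause was not tested. Signal over background limits all folds against Flt3+ GPs.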
